A study of Mus musculus with 6 samples.

Results

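The 10 genes described here encode interferon-inducible GTPases of mouse macrophages. They were chosen by name, but with earlier results of these data known. They are 5 guanylate-binding proteins (Gbp2, Gbp3, Gbp5, Gbp7 and Gbp9) and 5 immunity-related GTPases (Irgm1, Irgm2, Igtp, Ifi47 and Tgtp2), and each matched 1 of the 56691 genes in the deposited table. All of them were measured by RNA sequencing in 6 libraries of wild-type RAW246.7 cells, as the labels spell the name of this mouse macrophage line. Both groups had been pretreated with LPS, the lipopolysaccharide of bacterial outer membranes, and had then spent 24 h on a hydrogel, MSA-DA for 3 libraries and MSA-ZW for the other 3. The labels do not spell out the names of the gels. They give no untreated cells, so all values refer to LPS-pretreated cells on 1 gel or the other. Whether replicate libraries came from separate cultures is not stated in the labels, so a p-value here reflects no more than the scatter of these 6 libraries, which may be technical.

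Guanylate-binding proteins (GBPs) and immunity-related GTPases (IRGs) are among the most strongly induced proteins of cells exposed to interferon-gamma, and type I interferons induce them too. GBPs coat invading bacteria and the vacuoles around intracellular parasites, open them to the cytosol and help inflammasomes to detect bacterial lipopolysaccharide. IRGs work with them on the same vacuoles. The effector IRGs load onto the vacuole membrane and disrupt it, whereas the regulators Irgm1, Irgm2 and Igtp sit on the cell's own membranes and hold the effectors inactive there. Interferon switches these genes on through 2 kinds of DNA element near the start site. They are the gamma-activated site (GAS), through which interferon-gamma acts, and the interferon-stimulated response element (ISRE), which interferon regulatory factors bind.

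The upstream sequence of the members is shown first, as the place where the cores of both elements were searched for. The RefSeq promoter table (build GRCm38.p6, older than the GRCm39 build of the deposited table) held 9 of the 10 members, all but Gbp9, which is named only. The 250 bases before each start site were searched on both strands for the ISRE core GAAANNGAA and the GAS core TTCNNNGAA. At least 1 ISRE core was found in 8 of the 9 members and at least 1 GAS core in 5. Among all 27025 genes of the table, 8.18% had an ISRE core and 8.13% a GAS core in the same stretch. The last 110 bases before the start site follow for the 8 members with a match, read 5′ to 3′ on the strand of the gene, with the matched bases in capitals. ISRE cores of Gbp2, Gbp3 and Gbp7 lie on the opposite strand, so that their capitals show the reverse complement.
Igtp, chr11:58199446-58199555, plus strand: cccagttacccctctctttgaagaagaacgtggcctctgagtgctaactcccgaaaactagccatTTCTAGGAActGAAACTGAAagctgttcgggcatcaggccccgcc
Irgm2, chr11:58214867-58214976, plus strand: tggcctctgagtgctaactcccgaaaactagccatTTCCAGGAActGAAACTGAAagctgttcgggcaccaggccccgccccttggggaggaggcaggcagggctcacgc
Tgtp2, chr11:49064213-49064322, minus strand: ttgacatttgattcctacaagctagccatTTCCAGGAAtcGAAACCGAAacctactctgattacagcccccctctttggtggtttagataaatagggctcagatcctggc
Irgm1, chr11:48871421-48871530, minus strand: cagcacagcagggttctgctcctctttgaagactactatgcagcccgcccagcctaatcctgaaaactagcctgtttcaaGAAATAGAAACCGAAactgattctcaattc
Gbp7, chr3:142530226-142530335, plus strand: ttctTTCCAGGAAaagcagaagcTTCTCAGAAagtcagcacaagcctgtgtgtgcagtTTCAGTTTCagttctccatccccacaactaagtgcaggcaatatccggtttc
Gbp3, chr3:142559934-142560043, plus strand: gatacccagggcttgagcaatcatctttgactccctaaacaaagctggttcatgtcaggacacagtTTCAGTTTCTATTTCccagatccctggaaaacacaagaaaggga
Gbp2, chr3:142620553-142620662, plus strand: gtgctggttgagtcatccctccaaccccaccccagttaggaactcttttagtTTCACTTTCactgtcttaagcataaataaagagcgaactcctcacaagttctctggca
Gbp5, chr3:142496824-142496933, plus strand: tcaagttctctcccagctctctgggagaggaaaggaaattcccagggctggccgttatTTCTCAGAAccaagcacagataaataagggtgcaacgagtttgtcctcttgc

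In Igtp, Irgm2 and Tgtp2 a GAS core was followed, after 2 bases, by an ISRE core on the same strand. This arrangement, searched for after it was seen in these 3 genes, occurred in 7 of the 32851 promoter windows of the table, and besides the 3 members these were the windows of Tgtp1, Gm12185, Olfr382 and LOC115488470. In Gbp3 and in Irgm1 a pair of ISRE cores overlapped each other, which is why the capitals run on in those lines. Gbp3 has a second, downstream start site in the table, and the window of that site held neither core. The one ISRE core of Gbp5, at -164 to -156 relative to its start site, and the other of its GAS cores, at -245 to -237, lie outside the stretch printed. Ifi47 had neither core in the bases searched. A match is a description of these letters and not evidence of binding.

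**Figure D1:**
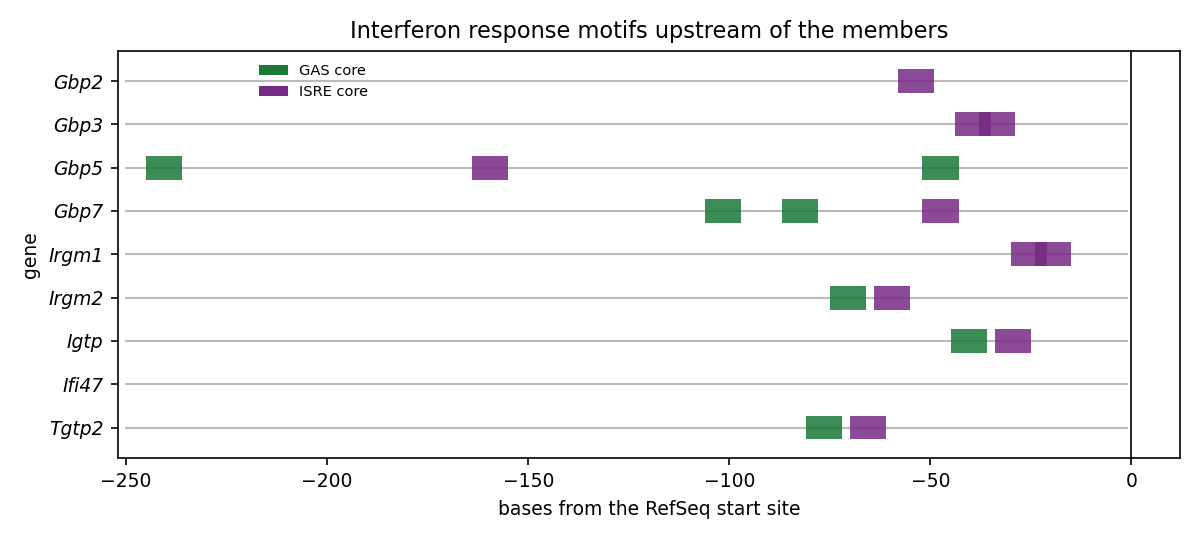
Position of ISRE cores (purple) and GAS cores (green) in the 250 bases before the RefSeq start site of 9 members, in bases from the start site. Igtp, Irgm2 and Tgtp2 each have a GAS core 2 bases ahead of an ISRE core, and Ifi47 has neither.

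The transcripts of 9 of the 10 GTPases were lower on MSA-DA than on MSA-ZW, none was higher, and Irgm2 did not pass. This was tested with the edgeR quasi-likelihood test across 12467 genes at a Benjamini-Hochberg adjusted p below 0.05. Of all genes tested, 6.5% were called lower on MSA-DA, a share that was 12.4% among the 3695 genes of at least 64 CPM (counts scaled to a library of 1000000 after TMM normalization), where 5 members lie, and 1.58% among the 2538 genes under 4 CPM, where Tgtp2 lies. All 10 members met the filter on low counts. In the same 9 genes every MSA-DA library lay below every MSA-ZW library, which was so for 13.7% of all genes tested. The median log2 difference of the 10 members, MSA-DA minus MSA-ZW, was -0.31, and that of all genes tested was 0.00. The falls ranged from 1.08-fold for Irgm1 to 2.03-fold for Tgtp2, and 2 members, Tgtp2 and Gbp5, fell by at least 1.5-fold. Of the 810 genes called lower among all tested, 64 fell by as much. The share of all genes called higher was 6.92%.

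Count totals per library were 14374912 to 18346615 on MSA-DA and 16347934 to 18193026 on MSA-ZW. The macrophage markers Ptprc, Adgre1, Cd68, Csf1r, Itgam and Lyz2 were all present, the least abundant, Adgre1, at 25.7 CPM on MSA-DA, against 25.1 CPM on MSA-ZW on unscaled totals. In the edgeR fit Csf1r and Lyz2 fell, with log2 differences of -0.20 and -0.37 (adjusted p = 2.22e-08 and 2.36e-16), Itgam rose by 0.21 (adjusted p = 9.23e-05) and the other 3 did not pass. The part of these differences in the results for the GTPases was not tested. Of the markers of other cell types, Cd3g of T cells and Epcam of epithelial cells had 0 counts in all 6 libraries, and Cd3e and Krt8 had 1 count in 1 library each. The neutrophil marker S100a8 had 19 to 28 counts on MSA-DA and 21 to 25 on MSA-ZW, the endothelial marker Cdh5 6 to 11 and 6 to 22, and the dendritic cell marker Zbtb46 6 to 15 and 6 to 9. Pecam1 and Pdgfra had at most 7 counts in any library. In bulk samples fewer cells of a kind and less RNA per cell cannot be told apart.

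Levels of the GTPases spanned a wide range. On FPKM, which is per length of the gene, Irgm1 was highest at 80.3 ± 0.17 on MSA-DA, against 87.3 ± 0.912 on MSA-ZW (SD, n = 3 each). It was followed in order of mean FPKM by Igtp, Gbp3, Irgm2, Gbp7, Ifi47, Gbp9, Gbp2, Gbp5 and Tgtp2. Tgtp2 was lowest, at 0.567 ± 0.105 FPKM on MSA-DA and 1.15 ± 0.166 FPKM on MSA-ZW. Neighbours in this order had library ranges that did not overlap in either group, except Gbp5 and Tgtp2, which overlapped in both. The 10 genes summed to 237, 238 and 236 FPKM in the MSA-DA libraries and to 277, 277 and 273 FPKM in the MSA-ZW libraries.

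**Figure D2:**
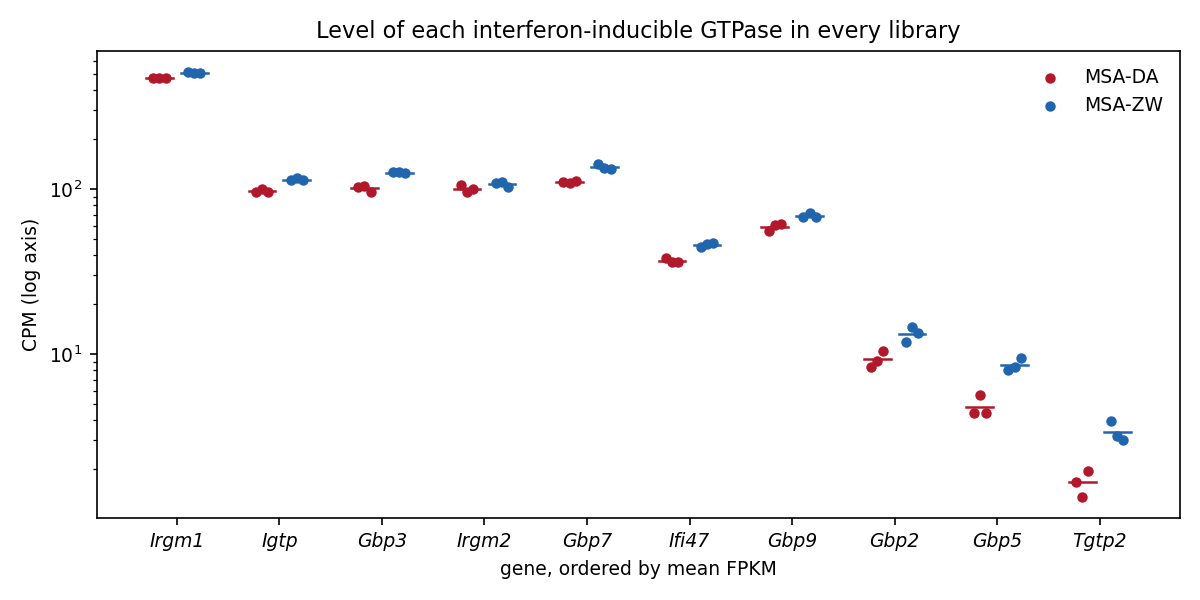
Level of each member in CPM (log axis) in the 3 MSA-DA libraries (red, left) and the 3 MSA-ZW libraries (blue, right), with the mean as a line; genes run from the highest to the lowest mean FPKM. The points of the groups are apart in 9 genes and overlap in Irgm2.

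Among the effector IRGs, Tgtp2, which loads onto parasite vacuoles early in their attack, had 24, 25 and 31 counts on MSA-DA, against 65, 52 and 55 on MSA-ZW. In CPM these were 1.68, 1.37 and 1.97 on MSA-DA and 3.93, 3.18 and 3.02 on MSA-ZW. The highest MSA-DA library was thus below the lowest MSA-ZW library, and the log2 difference was -1.02, standard error 0.23 (edgeR adjusted p = 0.00206). Tgtp2 has a near-identical copy, Tgtp1, with 4, 2 and 0 counts on MSA-DA and 7, 5 and 2 on MSA-ZW, so the values of both are uncertain to the extent that reads were split between them. Ifi47, the other effector IRG among the members, had 38.1, 36.2 and 36.4 CPM on MSA-DA, against 44.3, 46.6 and 47.2 CPM on MSA-ZW. It was 1.25-fold lower on MSA-DA, with a log2 difference of -0.32 and a standard error of 0.06 (edgeR adjusted p = 8.75e-05). Both effectors lie within the span of a longer gene, Olfr56, which had 55 to 65 counts on MSA-DA and 63 to 80 on MSA-ZW.

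Of the regulator IRGs, Irgm1 and Igtp fell and Irgm2 did not pass. Irgm1, whose loss in mice disturbs autophagy and defence against mycobacteria, had 468, 469 and 467 CPM on MSA-DA, against 512, 505 and 502 CPM on MSA-ZW. The libraries of each gel lay within a narrow band and the bands were apart, at a log2 difference of -0.11 with a standard error of 0.03 (edgeR adjusted p = 0.00197). Igtp, which sits on the endoplasmic reticulum and lipid droplets, had 95.7, 100.1 and 96.2 CPM on MSA-DA, against 114, 116 and 113 CPM on MSA-ZW. Its fall was 1.17-fold, with a log2 difference of -0.23 and a standard error of 0.04 (edgeR adjusted p = 3.13e-05). Irgm2, a Golgi-associated regulator, had 105, 96.4 and 99.7 CPM on MSA-DA, against 109, 109.8 and 103 CPM on MSA-ZW, so that the highest MSA-DA library exceeded the lowest MSA-ZW library. Its log2 difference was -0.10, with a 95% interval of -0.17 to -0.02 before adjustment (edgeR adjusted p = 0.109). Irgm2 passed without MSA-DA replicate 1 (edgeR adjusted p = 0.0477), without MSA-ZW replicate 3 (0.0260) and after GC content and gene length were corrected for (0.0269), and over all its alternatives the adjusted p ran from 0.0200 to 0.398. In the deposited annotation Igtp and Irgm2 overlap on the same strand of chromosome 11 (GRCm39), at 58090382 to 58098417 and 58090444 to 58113608, and reads in the shared stretch cannot be assigned without the counting settings.

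Because every library holds both kinds of IRG, the effectors among the members can be set against the regulators within a library, free of scaling between libraries. The summed FPKM of Ifi47 and Tgtp2 was 10.2%, 9.64% and 9.91% of the summed FPKM of Irgm1, Irgm2 and Igtp on MSA-DA, and 11.1%, 11.4% and 11.8% on MSA-ZW. The share was lower in each MSA-DA library than in any MSA-ZW library. Ifi47 made up most of the mean effector sum, 14.85 of 15.42 FPKM on MSA-DA and 18.64 of 19.79 FPKM on MSA-ZW. Iigp1, an effector IRG that is not a member, was not in the sum. Relative to Irgm1 in the same library, 8 of the other 9 members were lower on MSA-DA with no overlap between groups, by a log2 difference of -0.11 for Gbp9 to -0.91 for Tgtp2. The share of all genes without overlap in this ratio was not computed. The same 8 members were also apart in CPM, so the ratio is no separate support. Each of these 8 had an exact two-sided permutation p = 0.1, the smallest that 3 against 3 allows, and Irgm2 had a log2 difference of 0.02 in its ratio to Irgm1 with an exact permutation p = 0.7. A design of this size cannot reach 0.05 in such a test.

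Among the GBPs, Gbp5, which in mouse macrophages promotes assembly of the Nlrp3 inflammasome, fell furthest. It had 4.40, 5.63 and 4.38 CPM on MSA-DA, against 8.04, 8.39 and 9.49 CPM on MSA-ZW. No MSA-DA library came near the MSA-ZW libraries, and Gbp5 was 1.78-fold lower with a log2 difference of -0.84 and a standard error of 0.14 (edgeR adjusted p = 3.23e-05). Gbp2, a prenylated GBP that is needed to control Toxoplasma in mice, had 8.39, 9.03 and 10.4 CPM on MSA-DA, against 11.8, 14.5 and 13.5 CPM on MSA-ZW. The spread within each gel was wide for Gbp2, yet the groups stayed apart, with a log2 difference of -0.51 and a standard error of 0.11 (edgeR adjusted p = 0.000972).

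Gbp3, which is recruited to parasite vacuoles with the other GBPs, had 103, 104 and 96.4 CPM on MSA-DA, against 126, 126 and 125 CPM on MSA-ZW. Gbp7, which aids assembly of the phagocyte oxidase in mouse macrophages, had 110.4, 108 and 111 CPM on MSA-DA, against 141, 134 and 133 CPM on MSA-ZW. These neighbours on chromosome 3 each fell by 1.24-fold, with log2 differences of -0.31 and standard errors of 0.04 (edgeR adjusted p = 1.16e-07 for Gbp3 and 8.82e-08 for Gbp7). Gbp9, encoded on chromosome 5, had 55.3, 60.2 and 61.5 CPM on MSA-DA, against 67.6, 71.2 and 67.7 CPM on MSA-ZW. It was 1.16-fold lower, with a log2 difference of -0.22 and a standard error of 0.05 (edgeR adjusted p = 0.00145). The annotated span of Gbp9 overlaps that of Gbp8 and Gbp4 on the same strand, and these had 3 to 7 and 33 to 53 counts on MSA-DA and 3 to 6 and 55 to 64 counts on MSA-ZW. Gbp9 itself had 2863 counts over the MSA-DA libraries and 3517 over the MSA-ZW libraries.

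The 3 members with the lowest levels, Gbp2, Gbp5 and Tgtp2, were those with the largest falls and the widest standard errors. Among all genes tested the median log2 difference was 0.02 below 4 CPM and -0.01 between 4 and 16 CPM, the ranges that hold these 3 genes. The median standard error was 0.30 and 0.11 in these ranges, against 0.04 from 64 CPM up. A median near 0 does not show how far single genes of low level scatter in either direction. The part of level in the size of these falls was not tested.

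**Figure D3:**
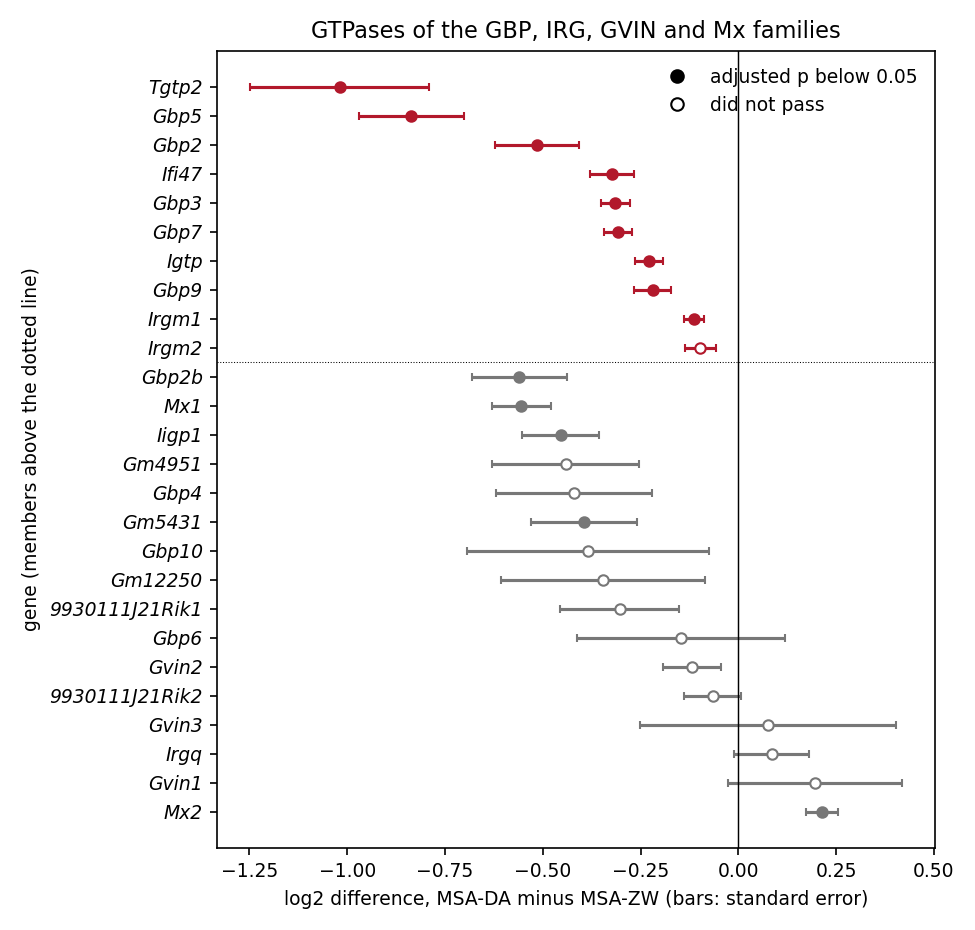
Log2 difference, MSA-DA minus MSA-ZW, with its standard error for the 10 members (red, above the dotted line) and for the 16 tested other GTPases of the GBP, IRG, GVIN and Mx families (grey). Filled points passed at an adjusted p below 0.05; members run from -1.02 for Tgtp2 to -0.10 for Irgm2, and Mx2 is the one filled point above 0.

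Of 22 further GTPases of the GBP, IRG, GVIN and Mx families, 21 were in the table and 16 had enough counts to be tested. Of these, 4 fell, 1 rose and 11 did not pass, with a median log2 difference of -0.32. Of all genes tested, 6.5% fell and 6.92% rose, and the median log2 difference was 0.00. Gbp2b, which lies between Gbp3 and Gbp2, fell to 6.79 ± 0.462 CPM on MSA-DA, against 10.1 ± 1.47 CPM on MSA-ZW (SD, n = 3 each, edgeR adjusted p = 0.00153). Iigp1, the best studied effector IRG, stood at 13.7 ± 2.34 CPM on MSA-DA, against 19.0 ± 1.19 CPM on MSA-ZW (edgeR adjusted p = 0.00135), a call that no limma fit on log2 FPKM made (adjusted p of 0.0574 to 0.0613). Mx1, an antiviral GTPase, was 1.47-fold lower on MSA-DA, while its paralog Mx2 rose by 1.16-fold and stood at 89.6 ± 2.27 CPM on MSA-DA, against 77.2 ± 1.25 CPM on MSA-ZW (edgeR adjusted p = 0.000279). The fourth gene that fell was Gm5431, at 5.84 ± 0.445 CPM on MSA-DA, against 7.73 ± 1.26 CPM on MSA-ZW (edgeR adjusted p = 0.0476). The call of Gm5431 was lost in 10 alternatives (adjusted p of 0.0575 to 0.284), among them the replicate block and the fits without MSA-DA replicate 1, 2 or 3 or MSA-ZW replicate 1. DESeq2 gave none of the 4 genes an adjusted p. Members of these families have similar copies, so their values are uncertain to the extent that reads were shared.

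The 10 members lie in 4 stretches of the genome (GRCm39), and the genes around them moved in both directions or did not pass. Gbp5, Gbp7, Gbp3 and Gbp2 stand in that order on chromosome 3 between 142199739 and 142343769, with Gbp2b among them, and all 5 fell. Irgm1, Tgtp2 and Ifi47 lie on chromosome 11 between 48752795 and 48987801, and Gbp9 lies on chromosome 5 at 105225496 to 105287405. Within 200000 bases of these stretches 24 tested genes are not among the GTPases listed by name. Some of them overlap such GTPases: Gm43302 spans Gbp10 and Gbp6, Gm12185 overlaps Tgtp1, and Olfr56 overlaps Ifi47 and Tgtp2. Of the 24 genes, 2 were lower on MSA-DA, 4 were higher and the median log2 difference was 0.00. Among all genes tested 6.5% were lower and 6.92% higher. Zfp62, near Ifi47, rose most, with a log2 difference of 0.27 (edgeR adjusted p = 5.19e-05). Gm12183 rose by 0.21 (edgeR adjusted p = 0.0476). The alternatives were not followed for Zfp62 and Gm12183. Pdlim5 and Pkn2, which flank the chromosome 3 cluster, were among the 4 that rose, with log2 differences of 0.19 and 0.12 (edgeR adjusted p = 0.0273 and 0.0217). Both calls were lost in DESeq2, in each limma fit on log2 FPKM and with the GC content and length correction. They were also lost without MSA-DA replicate 2 or 3. Pdlim5 further lost its call without MSA-DA replicate 1 or MSA-ZW replicate 1 or 3, and Pkn2 without MSA-ZW replicate 2 (adjusted p of 0.0638 to 0.193 over all losses). The genes that fell were Rack1, a ribosome-bound scaffold protein, and Psme2b, whose log2 differences were -0.12 and -0.19, and Psme2b did not pass without MSA-DA replicate 2 (adjusted p = 0.0831). This window was set after the values were seen.

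**Figure D4:**
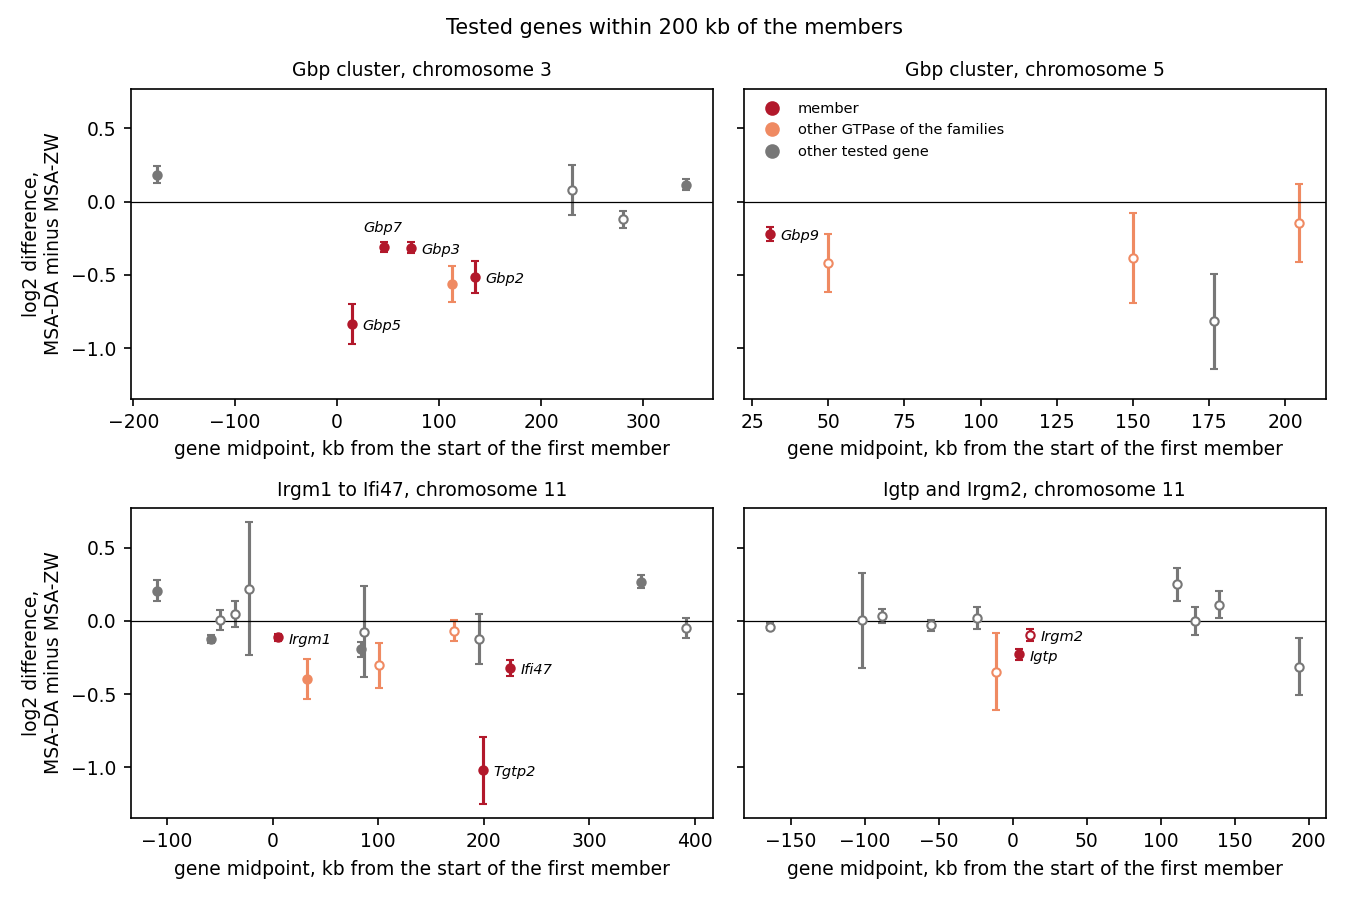
Log2 difference, MSA-DA minus MSA-ZW, with its standard error for every tested gene within 200 kb of the members, against the distance of the gene's midpoint from the start of the first member of each stretch. Members (red) and other GTPases of the families (orange) lie below 0, whereas other genes (grey) lie on both sides; filled points passed at an adjusted p below 0.05.

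The pathway that induces these GTPases was followed from ligand to target. No interferon ligand was tested: Ifng had 0 counts in all 6 libraries and Ifnb1 had 2 counts in MSA-ZW replicate 2 and 0 elsewhere. A count of 0 allows up to 3 counts, or 0.164 to 0.209 CPM in an MSA-DA library and 0.165 to 0.184 CPM in an MSA-ZW library, for counting error only, so differences in ligand transcripts were not detectable at this depth. Of 7 receptors and kinases tested, 1 fell and 0 rose, with a median log2 difference of -0.12, where 6.5% of all genes tested fell. With GC content and length corrected for, 3 fell, the kinases Jak1 and Jak2 among them (edgeR adjusted p = 0.0483 and 0.0371), and without MSA-DA replicate 1 or MSA-ZW replicate 2 the number was 0. The gene that fell was Ifngr2, the signalling chain of the interferon-gamma receptor, at 75.6 ± 4.34 CPM on MSA-DA, against 85.6 ± 5.14 CPM on MSA-ZW (SD, n = 3 each, edgeR adjusted p = 0.00933). The groups overlapped in Ifngr2, and its call was lost without MSA-DA replicate 1, MSA-DA replicate 3 or MSA-ZW replicate 2 and in limma on FPKM, with adjusted p of 0.0555 to 0.0890. The ligand-binding chain Ifngr1 stood at 26.8 ± 0.333 CPM on MSA-DA, against 29.0 ± 1.15 CPM on MSA-ZW (edgeR adjusted p = 0.291). For the type I receptor, Ifnar1 stood at 55.8 ± 1.45 CPM on MSA-DA, against 55.3 ± 3.40 CPM on MSA-ZW (edgeR adjusted p = 0.942). Ifnar2 stood at 47.9 ± 2.85 CPM on MSA-DA, against 52.7 ± 2.36 CPM on MSA-ZW (edgeR adjusted p = 0.0826), and it passed without MSA-DA replicate 3 (0.0369).

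Of the 9 transcription factors tested, 5 fell and 0 rose, with a median log2 difference of -0.17, where 6.5% of all genes tested fell. Stat2 was 1.10-fold lower and Irf7 1.13-fold lower. Irf8, a myeloid factor that binds ISRE-like sequences, was 1.24-fold lower at 53.8 ± 1.73 CPM on MSA-DA, against 66.5 ± 0.432 CPM on MSA-ZW (SD, n = 3 each). Irf1, a factor that interferon-gamma induces, stood at 30.9 ± 0.420 CPM on MSA-DA, against 35.8 ± 3.08 CPM on MSA-ZW (edgeR adjusted p = 0.0281), and it lost its call in 11 alternatives, with adjusted p of 0.0528 to 0.148. Among these were the fits without each of the MSA-DA libraries and without MSA-ZW replicate 2 or 3. Irf9 stood at 73.7 ± 2.23 CPM on MSA-DA, against 78.8 ± 0.754 CPM on MSA-ZW (edgeR adjusted p = 0.122).

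Of 7 feedback inhibitors tested, 2 fell and 0 rose, where 6.5% of all genes tested fell. Usp18, which shuts down the type I receptor, was 1.11-fold lower and Socs3 was 1.30-fold lower. Other genes that interferon-gamma induces fell in 6 of 7 tested cases and rose in 0, with a median log2 difference of -0.23. They were Cd74, Psmb8, Psmb9, Psmb10 and Tap1, which serve antigen presentation, and Cxcl10. This list held 13 genes. Ciita, Cxcl9, H2-Aa, H2-Ab1, H2-Eb1 and Ido1 had too few counts to be tested, at most 3 in any library. Cxcl10, a chemokine for T cells, was 1.96-fold lower at 5.01 ± 0.694 CPM on MSA-DA, against 9.76 ± 0.655 CPM on MSA-ZW (SD, n = 3 each). Of 9 type I interferon targets tested, 6 fell and 0 rose, with a median log2 difference of -0.14. They were the antiviral genes Ifit1, Ifit3, Isg15, Oasl1, Oasl2 and Rsad2. These lists were written with earlier results of these data known, in which interferon-stimulated genes as a group were lower on MSA-DA, so they are no independent support for the direction.

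**Figure D5:**
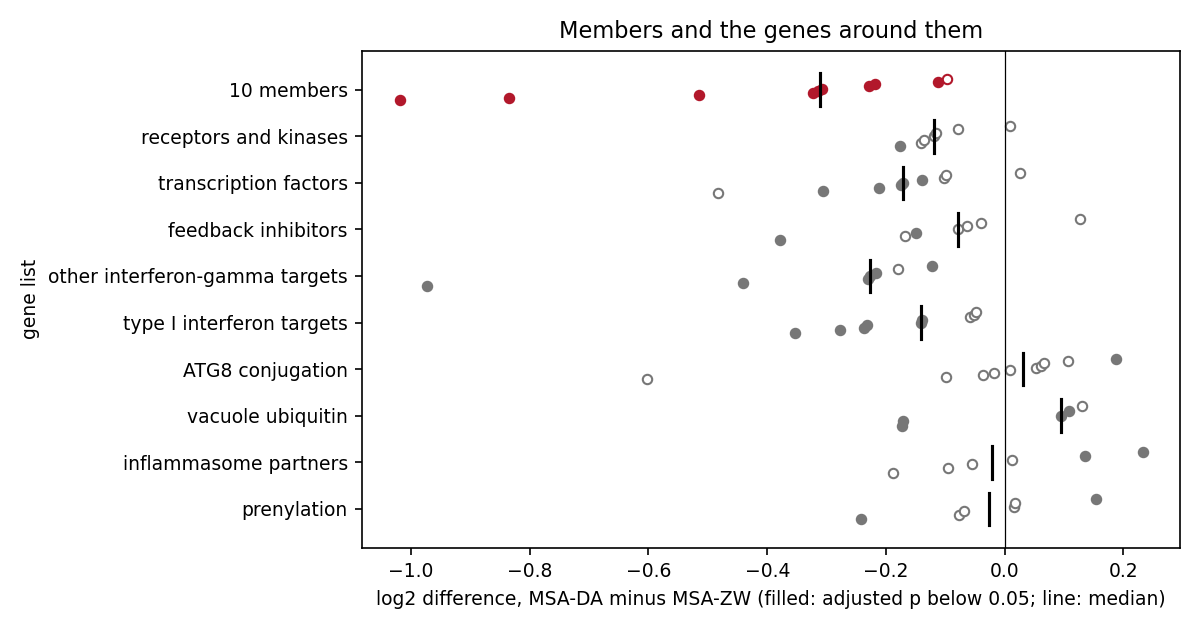
Log2 difference, MSA-DA minus MSA-ZW, of the 10 members (red) and of the tested genes of 9 related lists (grey), with the median of each list as a line; filled points passed at an adjusted p below 0.05. The medians of the interferon lists lie between -0.08 and -0.23 and that of the members at -0.31.

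The genes whose pattern over the 6 libraries was nearest to the mean pattern of the 10 members were Ifit3, Fcgr1, Cotl1, Cpd and Lyz2. Nearness was the root mean square distance of centred log2 CPM, 0.03 for each of the 5, among 7074 other genes with a mean of at least 5 FPKM. Ifit3 is an interferon-induced antiviral protein, Fcgr1 the high-affinity IgG receptor and Lyz2 the macrophage lysozyme. Lyz2 was at 1769 ± 24.4 CPM on MSA-DA, against 2291 ± 27.8 CPM on MSA-ZW (SD, n = 3 each). The members themselves lay farther from their own mean, from 0.06 for Gbp7 to 0.36 for Tgtp2. The 5 genes were picked as the nearest, so their smaller distances follow from that choice. Gbp2, Gbp5 and Tgtp2 are also below the mean of 5 FPKM that was asked of the other genes.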

How the data were processed

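RNA was extracted with Trizol, per the labels, and the submitters' processing notes name bcl2fastq 2.20.0.422, cutadapt 1.9.1, HISAT2 2.2.1 and the build GRCm39. No source used here gives the counting tool, its strand setting or the annotation release. The authors deposited raw counts and FPKM for each library, per the file headers. The deposited FPKM equal the count divided by gene length and library total to within 0.005. Samples were grouped by their titles.

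Counts entered the quasi-likelihood test of edgeR 4.0.16 in R 4.3.3 (TMM, filterByExpr, group as the only term), with Benjamini-Hochberg adjustment over 12467 genes and a threshold of 0.05. Standard errors were taken from the log2 difference and its F statistic. The alternatives were DESeq2 1.42.0, limma 3.58.1 on log2(FPKM + 1) and with other pseudocounts, voom with sample weights, other scalings and filters, a correction for GC content and length (GC from the longest transcript of each gene), a replicate block and leaving out each library. The edgeR fit was also run on counts simulated from its own means and dispersions. Such counts cannot show effects that libraries share. Members, lists and tests were chosen with earlier results of these data known. All 10 members are named, and from each list those with the smallest p, at most 4, with the interferon receptors, Irf1 and Tgtp1, except for items that are not reported here; Gm5431, Irf9 and the neighbouring genes were added after their values were seen. Promoter sequences are from RefSeq, build GRCm38.p6. Protein features were not analysed here.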

Additional observations from a re-analysis of the deposited data

How the results depend on the processing

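All 10 members were lower on MSA-DA under each alternative that tested them, and the number called was 9 in most of them. It was 10 with GC content and length corrected for, 10 without MSA-DA replicate 1 or MSA-ZW replicate 3, 9 to 10 over all fits that left out a library, 7 in limma on log2(FPKM + 0.1) and 6 in DESeq2, whose independent filtering left Gbp2, Gbp5 and Tgtp2 without an adjusted p. In limma on log2(FPKM + 0.1) Gbp5 and Tgtp2 missed the threshold (adjusted p = 0.0508 and 0.0573); both met the limma filter of 1 FPKM in 3 libraries through MSA-ZW alone. Leaving out a library moved the log2 difference of Tgtp2 between -1.16 and -0.89 and that of Gbp5 between -0.98 and -0.76. The number of all genes called was 1673. DESeq2 gave 964, limma 906, 895 and 907 on log2(FPKM + 1), log2(FPKM + 0.1) and log2(FPKM + 5), and leaving out a library 1001 to 1654, with 1001 without MSA-DA replicate 2 and 1065 without MSA-DA replicate 3. In the related gene lists 34 genes passed, against 21 with DESeq2 and 22 with each limma fit, and 2 of them rose with the GC content and length correction, against 7 without it. The sign turned for Arhgdia, whose log2 difference was -0.07 and became 0.0133 with that correction and 0.0131 with the replicate block added, and for Ifnar1, which ran from -0.0413 without MSA-ZW replicate 1 to 0.0423 without MSA-ZW replicate 2 and was -0.0154 without MSA-DA replicate 1. The replicate numbers did not pair the libraries (correlations of 0.0109, 0.0167 and -0.0025 between same-numbered libraries, and MSA-DA replicate 2 correlated best with MSA-ZW replicate 3, at 0.0192). With the replicate block 9 members and 1594 genes passed, and with the block and the GC correction together 10 members and 1291 genes. The cause of these changes was not tested. Depth limits Tgtp2 most, at 80 counts over the MSA-DA libraries and 172 over the MSA-ZW libraries.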

Other observations

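Calls among genes that work with the GTPases went in both directions, and most of these calls were lost in some alternatives. Of 10 genes of the ATG8 conjugation machinery, which GBPs and IRGs need to reach a vacuole, 1 rose (Atg16l1), 0 fell and 9 did not pass, with a median log2 difference of 0.03, where 6.92% of all genes tested rose. The call of Atg16l1 was lost in 9 alternatives (adjusted p of 0.0690 to 0.241), among them the fits without MSA-DA replicate 1, MSA-DA replicate 2 or MSA-ZW replicate 1. Of 6 tested inflammasome partners, 2 rose and 0 fell. With GC content and length corrected for, 0 rose and 1 fell, and without MSA-ZW replicate 3, 2 rose and 1 fell. The gene that fell there was the cytokine Il18, whose log2 difference was -0.19 (edgeR adjusted p = 0.0833) and became -0.23 (0.0282) and -0.22 (0.0478). Aim2, a DNA sensor, stood at 129.5 ± 3.56 CPM on MSA-DA, against 118 ± 1.52 CPM on MSA-ZW (SD, n = 3 each, edgeR adjusted p = 0.00737), and it did not pass without MSA-DA replicate 2 or once GC content and length were corrected for (adjusted p of 0.0932 to 0.163). Casp4, which binds lipopolysaccharide on GBP-coated bacteria, stood at 30.6 ± 2.05 CPM on MSA-DA, against 26.1 ± 0.966 CPM on MSA-ZW, and lost its call in 9 alternatives, among them the fits without MSA-DA replicate 2, MSA-DA replicate 3 or MSA-ZW replicate 1.

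Of 5 genes that tag vacuoles with ubiquitin or read the tag, 2 rose (Sqstm1 and Tax1bp1) and 2 fell (Rnf213 and Trim21). Of all genes tested, 6.92% rose and 6.5% fell. The call of Tax1bp1 was lost in 16 alternatives (adjusted p of 0.0565 to 0.619), every fit that left out a library among them, and that of Trim21 in 7 (adjusted p of 0.104 to 0.181), among them the fits without MSA-DA replicate 1 or 2 or MSA-ZW replicate 1. The autophagy receptor Sqstm1 was at 746 ± 13.4 CPM on MSA-DA, against 692 ± 12.2 CPM on MSA-ZW (SD, n = 3 each, edgeR adjusted p = 0.00199). The ubiquitin ligase Rnf213 was at 1912 ± 35.4 CPM on MSA-DA, against 2154 ± 177 CPM on MSA-ZW (edgeR adjusted p = 0.00016), the groups overlapped, and neither DESeq2 nor limma on FPKM called it (adjusted p of 0.0677 to 0.0975). Of 6 genes of protein prenylation, which anchors some GBPs in membranes, 1 rose (Pggt1b) and 1 fell (Fntb), beside the same shares of all genes. The call of Pggt1b was lost in 11 alternatives (adjusted p of 0.0685 to 0.156) and that of Fntb in 9 (adjusted p of 0.0756 to 0.271), both among others without MSA-DA replicate 1, 2 or 3 or MSA-ZW replicate 2, and that of Pggt1b also without MSA-ZW replicate 3.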
